A study of Homo sapiens with 6 samples.

Results

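The immediate early genes FOS, JUN, JUNB, JUND, ATF3, EGR1, KLF6, IER2, IER3 and DUSP1 are 10 of the 60607 genes in the files. They were chosen by gene symbol, and every transcript record with any of those symbols was taken. PLC/PRF/5, an established hepatocellular carcinoma line, received siRNAs against SLU7, a factor of the second step of pre-mRNA splicing, or the irrelevant siRNA siGL2. RNA was taken 48 h later from 3 libraries of each kind, all of the same cell line and with no other treatment in the labels. The title asks whether loss of SLU7 alters the mRNA transcripts made. The labels used here give no siRNA sequence or dose and do not say whether cultures were separate, so p-values measure the spread between these libraries, which may be technical.

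Immediate early genes are transcribed within minutes of a growth, stress or inflammatory signal, without new protein synthesis, and their short-lived mRNAs disappear soon after. MAP kinases drive them by phosphorylating the ternary complex factors that sit with SRF on CArG boxes, and by activating CREB and ATF proteins on cAMP response elements. Many of the products are transcription factors: FOS and JUN family proteins pair through leucine zippers to form AP-1. Others end the signal, as DUSP1 does by removing phosphates from the MAP kinases. In the liver the family is known for its induction after partial hepatectomy and in injured hepatocytes.

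SLU7, the targeted gene, was at 20.8, 17.1 and 18.3 CPM (counts scaled to the size of the library with TMM factors) in the controls and at 9.24, 8.11 and 10.5 CPM in the knockdowns. It fell to 49.5% of the control level (log2 change -1.02, SE 0.18, adjusted p = 0.0139, edgeR's quasi-likelihood test). On log2(TPM + 1) with limma the same change was -0.06 (adjusted p = 0.868), where the median change over all genes was 0.35. With offsets for transcript length the SLU7 change was -0.65 and did not pass. Control libraries held 7736584 to 8693977 estimated counts and knockdown libraries 5191452 to 6315740. Mitochondrial ribosomal RNA took 16.8% to 24.1% of control and 29.9% to 35.3% of knockdown counts. Genes with RN7SL symbols took 15.9% to 23.5% of control and 8.09% to 10.6% of knockdown counts. Hepatocyte markers were expressed at uneven levels, with APOB at 687 to 808 TPM (a length-scaled share of the library) and TF at 260 to 339 TPM. ALB was at only 7.96 to 18.9 TPM, APOH at 1.65 to 4.19 TPM and TTR at 0.70 to 6.11 TPM. AFP, a hepatoma marker, did not exceed 1.04 TPM. The 10 hepatocyte markers summed to 4077 to 13890 TPM in controls and to 5573 to 14130 TPM in knockdowns. SERPINA1 was the largest part of that sum in every library, at 2697 to 12201 TPM. Immune markers summed to 42.1 to 50.8 and 43.9 to 52.3 TPM, nearly all LYZ and CD68. The 4 fibroblast markers summed to 2.82 to 5.60 TPM in controls and to 5.23 to 8.89 TPM in knockdowns, and the 4 endothelial markers to at most 1.44 TPM, with KDR at 0 in every library. In edgeR, 1 marker passed the test in each of 3 lists: PTPRC, a leukocyte gene, at 0.13 to 0.23 TPM in control and 0.77 to 1.01 TPM in knockdown libraries (log2 change 2.01, adjusted p = 0.0226), TTR among the hepatocyte markers (1.52, adjusted p = 0.0240) and PDGFRB among those of fibroblasts (-0.90, adjusted p = 0.0403). In TPM, PDGFRB made up most of the fibroblast sum, at 2.46, 3.59 and 4.99 in controls and 4.65, 7.08 and 3.83 in knockdowns. Those PDGFRB values overlap and do not show the fall fitted on CPM, so its direction depends on the scale. The part of these marker levels and of depth in the results was not tested. Control 1 and knockdown 3 stood apart from the other libraries, with SERPINA1 at 12201 and 12162 TPM against 2697 to 4373 TPM. Results are therefore also given without that pair. In bulk RNA, fewer cells expressing a gene and less of its RNA per cell cannot be told apart.

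The sequence around the start of these genes was searched for elements through which early genes are known to be induced. RefSeq (GRCh38.p14) gives a window around the start, most of it upstream, for 9 of the 10 genes, with 10 windows in all because ATF3 has 2. The motifs were chosen after the windows had been read, and both strands were searched. The cAMP response element TGACGTCA lies in the windows of 2 genes (1.85% of all 35116 windows), and the related element TGACATCA, first described in the JUN promoter, in those of 3 genes (2.61%). The CArG box, the SRF site, is in the window of 1 gene (1.29%). The windows hold only sequence close to the start, and sites further upstream were not searched. The AP-1 site TGACTCA is in none of the windows (4.95% of all windows). TATAAA is in 4 of the 9 genes (11.5%), CCAAT in 5 (34.6%) and TGACG, which overlaps the cAMP response element, in 7 (24.6%). A match is a string of letters in the window, and factor binding was not measured. The RefSeq window of JUN lies inside the JUN gene as GENCODE 29 draws it. The stretches below show the TGACATCA or TGACGTCA element or the CArG box in capitals, on the gene's strand, with the distance of the motif from the start.
JUN, -67, chr1:58784096-58784125, minus strand: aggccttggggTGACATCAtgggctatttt
ATF3, -123, chr1:212565273-212565302, plus strand: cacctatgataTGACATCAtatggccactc
KLF6, -172, chr10:3785363-3785392, minus strand: ttggccggagcTGACATCAtcggcgcgcag
JUND, -200, chr19:18281804-18281833, minus strand: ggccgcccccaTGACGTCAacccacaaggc
DUSP1, -125, chr5:172771302-172771331, minus strand: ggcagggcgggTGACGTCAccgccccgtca
EGR1, -105, chr5:138465364-138465393, plus strand: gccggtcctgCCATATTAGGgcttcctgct
EGR1, -83, chr5:138465386-138465415, plus strand: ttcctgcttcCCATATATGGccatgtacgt

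The rapid decay of these mRNAs is attributed to AU-rich elements in the 3′ UTR, where ATTTA repeats recruit decay factors such as ZFP36. In GENCODE 29, the longest coding transcript carried at least 3 ATTTA in 6 of the 10 genes, against 44.3% of 12528 tested coding genes. KLF6 and IER3 had 6 each, FOS 5, DUSP1 4, JUN and ATF3 3 each, JUNB 2, JUND and EGR1 1 each and IER2 none. The nonamer TTATTTATT was found in 2 genes, FOS and DUSP1, against 8.90% of coding genes. The FOS and DUSP1 sites are shown on the gene's strand with the nonamer in capitals, 1 site per gene.
FOS, chr14:75282060-75282089, plus strand: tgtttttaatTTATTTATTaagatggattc
DUSP1, chr5:172768642-172768671, minus strand: gggctggtccTTATTTATTtaacttcaccc
The longest coding transcript has 1 exon, and so no intron to splice, in JUN, JUNB, JUND, IER2 and IER3, which are 5 of 10 against 2.56% of tested coding genes. JUND, IER2 and IER3 also have coding transcripts of 2 exons, and JUND-202 held 13.4% to 60.2% of JUND counts per library. IER3-201, of 2 exons, held most of the IER3 counts, 66.7% to 93.4%. IER2-201, of 2 exons, held 0% to 76.3% of IER2 counts. JUN-202, whose exons GENCODE 29 does not give, held 0% to 68.8% of JUN counts. The 5 of 10 thus describes the longest transcript, which is not always the most abundant.

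All 10 genes passed the filter on low counts, and 2 of them changed after SLU7 knockdown: JUN rose and IER3 fell. That is 2 of 10 beside 13.8% of the 17097 genes tested, with 5.93% called higher and 7.87% called lower, so the family's share lies near the background. The direction of calls over all genes depended on the scaling: 1013 were higher and 1345 lower here, 998 higher and 798 lower with offsets for GC content and length, and 2979 higher and 150 lower with limma on log2(TPM + 1). The estimate was below 0 for 8 of the 10 genes, with a median log2 change of -0.35 beside -0.01 over all genes. With the GC content and length offsets 4 of the 10 were below 0 (median 0.13, beside 0.05 over all genes). On log2(TPM + 1) 4 of the 10 were also below 0 (median 0.09), but the median over all genes was 0.35 there. Only JUN and KLF6 lay above that median of all genes. The knockdown and control libraries did not overlap for JUN and IER3, 2 of 10, where 36.6% of all genes tested did not overlap. JUNB, JUND and DUSP1 had larger estimated decreases than IER3 but a wider spread, and passed the test only in some of the alternatives.

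**Figure D1:**
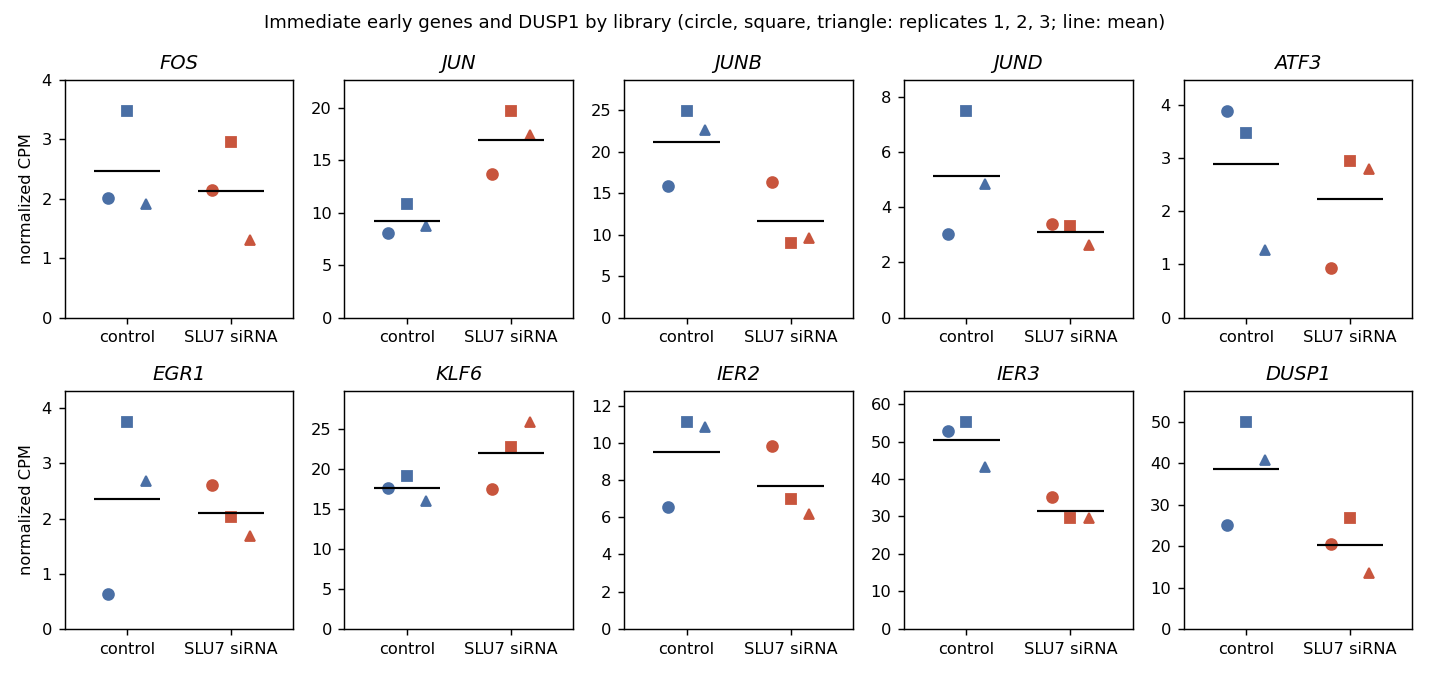
Normalized CPM of the 10 genes in each of the 3 control and 3 knockdown libraries, 1 panel per gene with its own linear axis from 0, points for libraries and lines for group means. Control and knockdown points are separated for JUN (8.04 to 10.8 against 13.7 to 19.7) and IER3 (43.2 to 55.2 against 29.7 to 35.1) and overlap in the other panels.

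JUN, the AP-1 subunit that can form both homodimers and FOS heterodimers, lies on chromosome 1 (58780788 to 58784327, minus strand, GENCODE 29 on GRCh38) and carries the TGACATCA element shown above. It was at 8.04, 10.8 and 8.69 CPM in the controls and at 13.7, 19.7 and 17.4 CPM in the knockdowns. Every knockdown library was above every control. The mean went from 9.19 ± 1.47 (SD, n = 3) to 16.9 ± 3.04 CPM (n = 3), and JUN rose 1.84-fold (log2 change 0.88, SE 0.21, adjusted p = 0.0298, edgeR). The estimate was positive in all 17 alternatives, from 0.76 to 1.18, and passed the test in 10 of them. Without control 1 and knockdown 3 it was 0.77 (adjusted p = 0.0306), and with offsets for transcript length 0.79 (adjusted p = 0.0917). Without any of control 2, control 3 or the 3 knockdowns singly the call was lost, with an adjusted p of up to 0.130.

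JUNB, which binds DNA with FOS proteins and often acts as a weaker activator than JUN, lies on chromosome 19 (12791496 to 12793315, plus strand). It was at 15.8, 24.9 and 22.6 CPM in the controls and 16.3, 9.03 and 9.53 CPM in the knockdowns. Knockdown 1 was inside the control range and the other 2 knockdowns were below it. The log2 difference was -0.85 (SE 0.27), with an unadjusted p of 0.0127 and an adjusted p of 0.0702 in edgeR, so JUNB did not pass. Without control 1 and knockdown 3 the difference was -0.88 and passed (adjusted p = 0.0183), where 29.8% of all genes passed. DESeq2 also called it (adjusted p = 0.0396). HOOK2 overlaps JUNB on the opposite strand and was at 12.2 ± 3.55 and 7.51 ± 3.09 CPM (SD, n = 3 each), and reads of the overlap cannot be assigned because the strand setting is not given.

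JUND, the AP-1 subunit most often expressed in resting cells, lies on chromosome 19 (18279760 to 18281622, minus strand). It was at 3.01, 7.500 and 4.86 CPM in the controls and 3.39, 3.32 and 2.62 CPM in the knockdowns. The controls spanned 2.49-fold and enclosed 2 of the knockdown libraries. The log2 difference of -0.71 (SE 0.37) did not pass (adjusted p = 0.219, edgeR), and with offsets for GC content and length it was 0.14. FOS, the AP-1 subunit that cannot bind DNA without a JUN partner, lies on chromosome 14 (75278774 to 75282230, plus strand). Its libraries held 2.01, 3.48 and 1.92 CPM in the controls and 2.15, 2.95 and 1.31 CPM in the knockdowns, which overlap. These values rest on 8 to 26 estimated counts per library. The log2 difference was -0.20 (SE 0.42, adjusted p = 0.775, edgeR), and FOS did not pass.

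ATF3, a stress-induced factor of the ATF/CREB family that pairs with JUN proteins, lies on chromosome 1 (212565334 to 212620777, plus strand). It was at 3.89, 3.48 and 1.278 CPM in the controls and 0.92, 2.95 and 2.80 CPM in the knockdowns. Each group thus held 1 low library and the groups overlap. The log2 difference was -0.40 (SE 0.53, adjusted p = 0.652, edgeR). The transcripts behind that sum differed between the groups in the authors' estimates. ATF3-211, a coding transcript of 5 exons that begins at 212608628, held 12.3, 9.18 and 6.14 estimated counts in the controls and was listed at 0 in every knockdown. ATF3-206, a coding transcript of 4 exons that begins at 212565334, the start of the whole gene, held 0, 2.12 and 0 in control libraries, against 3.78, 5.15 and 5.71 with SLU7 siRNA. Both were too low to be tested, were picked out after their values were seen, and depend on how the quantifier divided a total of 6 to 31 counts per library.

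EGR1, a zinc-finger factor that carries the CArG boxes shown above, lies on chromosome 5 (138465490 to 138469315, plus strand). It was at 0.63, 3.75 and 2.68 CPM in the controls and 2.62, 2.03 and 1.68 CPM in the knockdowns. Control 1 was the lowest and control 2 the highest of all 6 libraries, a 5.97-fold range within the controls. The log2 difference was -0.14 (SE 0.56, adjusted p = 0.890, edgeR). KLF6, a zinc-finger factor described as a tumour suppressor in liver cancer, lies on chromosome 10 (3775996 to 3785281, minus strand). It was at 17.6, 19.0 and 16.0 CPM in the controls and 17.4, 22.7 and 25.8 CPM in the knockdowns. Knockdown 1 was inside the control range and the other 2 knockdowns were above it. The log2 difference of 0.32 (SE 0.19) did not pass (adjusted p = 0.280, edgeR), nor in any of 17 alternatives, which ran from 0.19 to 0.66.

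IER3, an immediate early regulator of cell survival, was the most abundant of the 10 genes and lies on chromosome 6 (30743199 to 30744554, minus strand). It was at 52.9, 55.2 and 43.2 CPM in the controls and 35.1, 29.7 and 29.7 CPM in the knockdowns. Every knockdown was below every control. IER3 fell to 62.6% of the control level, from 50.4 ± 6.36 to 31.5 ± 3.11 CPM (SD, n = 3 each), with a log2 change of -0.68 (SE 0.16, adjusted p = 0.0283, edgeR). Without control 1 and knockdown 3 the change was -0.60 (adjusted p = 0.0193). With offsets for GC content and length it was -0.34 (adjusted p = 0.206), with offsets for length alone -0.73 (adjusted p = 0.0653) and on log2(TPM + 1) with limma -0.16 (adjusted p = 0.638). The call was also lost without any of control 2, control 3 or the 3 knockdowns singly, with an adjusted p of up to 0.134. IER2, a nuclear protein of the same early response, lies on chromosome 19 (13150415 to 13154908, plus strand). It was at 6.53, 11.1 and 10.9 CPM in the controls and 9.85, 7.01 and 6.17 CPM in the knockdowns. Control 1 lay with the lower knockdowns and knockdown 1 near the upper controls, and the log2 difference was -0.30 (SE 0.28, adjusted p = 0.503, edgeR).

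DUSP1, the phosphatase that inactivates p38, JNK and ERK and so ends the signal that induced it, lies on chromosome 5 (172768090 to 172771195, minus strand). It was at 25.0, 49.95 and 40.9 CPM in the controls and 20.5, 26.7 and 13.5 CPM in the knockdowns. Knockdown 2 was above control 1, and otherwise the knockdowns were lower. The mean was 38.6 ± 12.6 in controls and 20.2 ± 6.64 CPM in knockdowns (SD, n = 3 each), a log2 difference of -0.93 (SE 0.30) with an unadjusted p of 0.0136 and an adjusted p of 0.0726 in edgeR, which did not pass. Without control 1 and knockdown 3 it was -0.95 and passed (adjusted p = 0.00299), and DESeq2 called it as well (adjusted p = 0.0246). With offsets for GC content and length the difference was -0.72 (adjusted p = 0.142). IER2, IER3 and DUSP1 each overlap an antisense or neighbouring gene on the opposite strand, and those partners stayed below 1 CPM in every library.

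**Figure D2:**
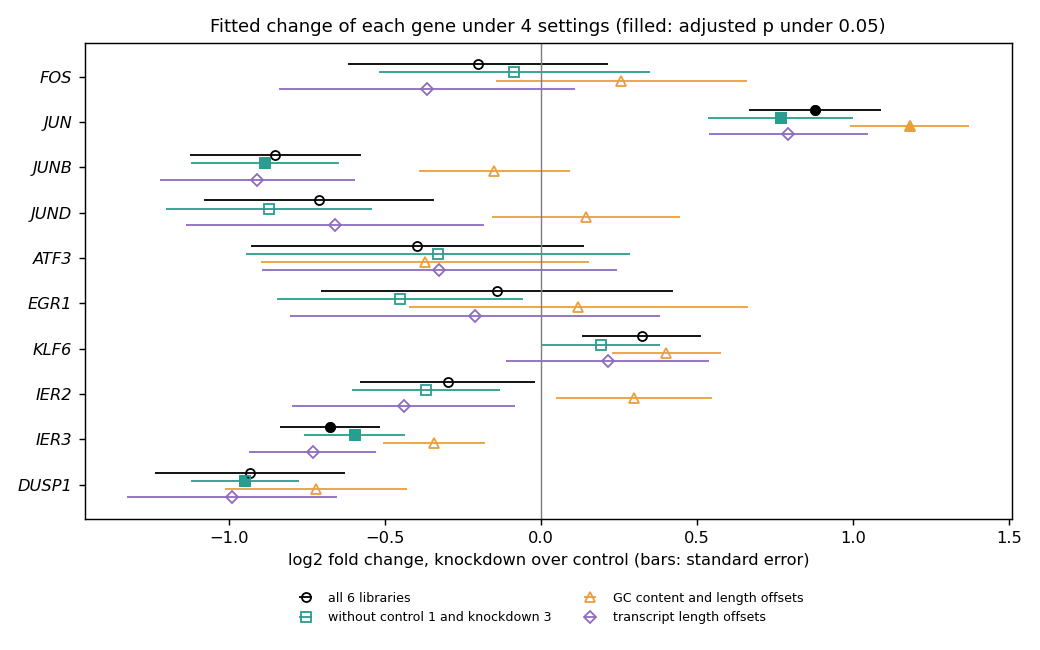
Log2 change of knockdown against control with its standard error for the 10 genes, from edgeR under 4 settings (all 6 libraries, without control 1 and knockdown 3, with GC content and length offsets, and with length offsets), filled where past the test. JUN lies above 0 (0.88 with all libraries) in every setting and IER3, JUNB and DUSP1 below it (-0.68, -0.85 and -0.93).

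Levels can be compared between genes only per length, as TPM. In the controls the order was IER3 (19.5 ± 2.03), DUSP1 (8.85 ± 2.45), JUNB (5.40 ± 1.16), KLF6 (3.98 ± 0.78), JUND (2.64 ± 0.91), IER2 (1.81 ± 0.70), FOS (1.505 ± 0.16), JUN (1.33 ± 0.14), ATF3 (1.25 ± 0.68) and EGR1 (0.33 ± 0.20 TPM, SD, n = 3 each). IER3 stood above DUSP1 and EGR1 below ATF3 without overlap between libraries, and the neighbours between them overlapped. In the knockdowns JUN was at 3.05, 3.80 and 3.45 TPM against 1.17, 1.37 and 1.44 TPM in the controls. It then lay above FOS (1.74 ± 0.83 TPM) and ATF3 (1.52 ± 0.75 TPM) with no overlap. KLF6 was at 7.07 ± 2.56 TPM in the knockdowns, beside 6.64 ± 2.07 TPM for DUSP1 and 4.27 ± 1.58 TPM for JUNB. On log2(TPM + 1), a scale whose pseudocount of 1 makes the differences of low genes smaller, the median difference of all genes was 0.35. Relative to that median and on that scale, JUN was at 0.57, KLF6 at 0.31, IER3 at -0.51, JUNB at -0.66 and DUSP1 at -0.73.

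Several of these genes varied more between control libraries than most genes did. The highest control was 5.97 times the lowest for EGR1, 3.05 times for ATF3 and 2.49 times for JUND, against a median of 1.47 over all genes tested. KLF6 (1.19), IER3 (1.278) and JUN (1.35) varied less than that median. EGR1, ATF3 and JUND rest on 5 to 28, 10 to 31 and 24 to 56 estimated counts in the controls. Their ratios were not compared with those of genes of similar counts. Control 2 was the highest control for 9 of the 10 genes, and control 1 the lowest for 6. The mean standardized level of the 10 genes was -0.34, 0.92 and 0.08 in control libraries, against -0.20, 0.01 and -0.46 with SLU7 siRNA, so control 2 stood highest of all 6. Over the 6 libraries, the 5 coding genes with the profile most like that mean, among 9926 with at least 5 CPM, were NDUFA13 (Pearson's r 0.996), TSPAN3 (0.993), AKT2 (0.986), MTM1 (0.984) and CRAMP1 (0.979). None of those 5 passed the test between knockdown and control. NDUFA13, for example, was at 15.1, 35.0 and 18.9 CPM in the controls and 15.4, 19.2 and 13.1 CPM in the knockdowns.

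The 10 genes have 40 transcripts in the files, of which 13 could be tested. None of them passed in edgeR, and none of all 43128 tested transcripts did (0% called), although 3 of the 13 had an unadjusted p under 0.05. Those were IER3-201 (log2 difference -0.89, adjusted p = 0.187), JUNB-201 (-0.98, adjusted p = 0.256) and DUSP1-201 (-1.05, adjusted p = 0.259). Transcript usage, the division of a gene's counts between its transcripts, could be tested in JUN, KLF6, IER2 and IER3. No usage change passed with diffSpliceDGE, at an unadjusted p under 0.05, with the gene-level test or with limma diffSplice. Of 8869 genes 2.90% passed with diffSpliceDGE, 442 genes with the gene-level test and 940 with limma diffSplice. With only 4 genes tested, 0 calls does not set them apart from all genes.

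The division between spliced and unspliced transcripts varied from library to library. The spliced IER3-201, of 2 exons, held 389, 344 and 241 estimated counts in control libraries, against 152, 150 and 120 with SLU7 siRNA. IER3-202, of 1 exon, held 32.1, 68.1 and 96.8, against 75.9, 10.6 and 39.3. In TPM the groups overlapped for both, with IER3-201 at 20.3, 15.2 and 13.7 in controls and 13.4, 15.2 and 12.7 in knockdowns. IER2-201, of 2 exons, held 0, 62.8 and 55.4 in control libraries, against 13.5, 10.8 and 11.2 with SLU7 siRNA. IER2-203, of 1 exon, held 51.6, 19.5 and 30.4, against 49.7, 27.1 and 17.8. The spliced IER2 form was thus listed at 0 in control 1. JUN-202, annotated in the files as subject to nonsense-mediated decay, held 0, 42.3 and 21.5 in control libraries, against 61.3, 0 and 0, with the rest of the gene's counts in JUN-201. Estimated counts are not scaled for depth, which was lower in every knockdown.

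**Figure D3:**
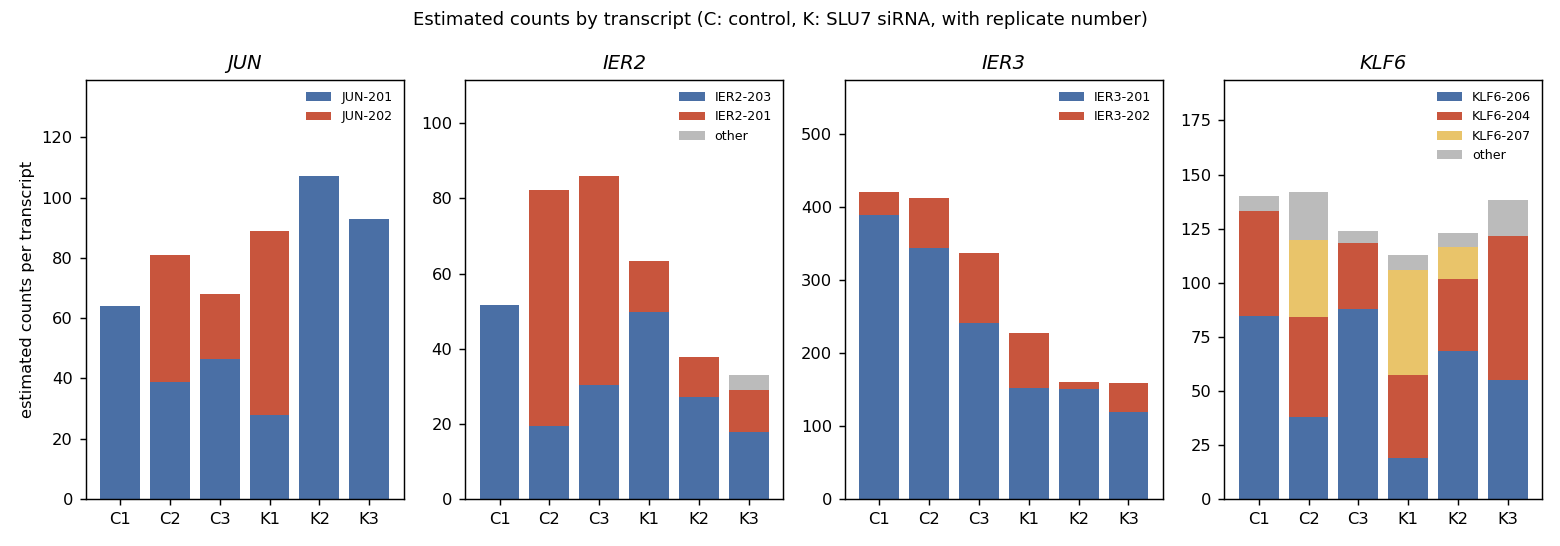
Estimated counts of the transcripts of JUN, IER2, IER3 and KLF6 in each of the 6 libraries, stacked per library on a linear axis from 0, with untested transcripts summed in grey. The share of JUN-202, IER2-201 and IER3-202 differs between libraries of the same group, with IER2-201 at 0 in control 1 and at 55.4 and 62.8 counts in the other controls.

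Genes of the same pathway were counted in 6 lists, each adjusted over all 17097 genes, of which 13.8% passed. Every list had between 1 and 3 genes past the test, of 10 to 17 tested, which is near that share. On log2(TPM + 1), where the median of all genes was shifted by 0.35, the direction of the calls was the opposite in 3 lists. AP-1 and small MAF subunits had 2 higher and 0 lower (median 0.04) and MAP kinases 3 and 0 (median 0.31). AP-1 targets had 1 and 0 (median 0.19). The calls were of other genes, as none of those called lower with edgeR in these lists passed on that scale. Of 11 tested AP-1 and small MAF subunits outside the 10 genes, 2 fell, none rose and the median log2 change was -0.48, beside -0.01 over all genes. FOSL2, a FOS-related AP-1 subunit, was at 14.4, 20.1 and 17.3 CPM in the controls and 6.62, 10.7 and 6.17 CPM in the knockdowns (log2 change -1.14, SE 0.25, adjusted p = 0.0228, edgeR). MAFK, a small MAF protein that dimerizes with NRF2 and BACH proteins, was at 68.4, 120 and 86.3 CPM and then 41.7, 40.9 and 44.5 CPM (log2 change -1.11, SE 0.21, adjusted p = 0.0153, edgeR). Both groups of values were separate. With offsets for GC content and length neither passed (FOSL2 -0.74, adjusted p = 0.0776, and MAFK -0.41, adjusted p = 0.0888), nor did either on log2(TPM + 1) (-0.52 and -0.50).

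Among 17 tested immediate early genes outside the 10, 2 rose, 1 fell and the median was -0.02. ZFP36, which binds ATTTA elements and speeds the decay of their mRNAs, was at 12.3, 43.0 and 25.2 CPM in the controls and 5.08, 4.98 and 4.67 CPM in the knockdowns. All knockdowns were below the lowest control, and ZFP36 fell to 18.4% (log2 change -2.44, SE 0.42, adjusted p = 0.0119, edgeR). CCN1, a secreted matrix protein, rose 1.89-fold, from 5.15, 6.03 and 6.26 to 11.7, 10.7 and 10.7 CPM (adjusted p = 0.0211, edgeR). PLK3, a stress-response kinase, rose 1.84-fold, from 3.89, 3.75 and 3.83 to 6.46, 5.90 and 8.79 CPM (adjusted p = 0.0497, edgeR). Of 17 alternatives, ZFP36 passed in 14, CCN1 in 11 and PLK3 in 7. The PLK3 call was lost, among others, without control 1 and knockdown 3 (0.71, adjusted p = 0.0854) and with DESeq2. The other 14 genes did not pass.

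Of 10 tested dual-specificity phosphatases other than DUSP1, 1 fell and none rose, with a median of -0.19. DUSP9, which acts mainly on ERK, fell to 46.3%, from 20.8, 48.9 and 29.01 to 15.2, 15.7 and 14.8 CPM (log2 change -1.11, SE 0.29, adjusted p = 0.0377, edgeR). DUSP9 did not pass with offsets for GC content and length (-0.30, adjusted p = 0.338), on log2(TPM + 1) (-0.42, adjusted p = 0.229) or without control 2 (-0.72, adjusted p = 0.0898). Among 16 MAP kinases and their effector kinases, 3 fell and none rose, with a median of -0.15. MAP2K2, the ERK kinase MEK2, fell to 49.9%, from 63.5, 79.3 and 69.9 to 31.9, 33.2 and 41.1 CPM (adjusted p = 0.0106, edgeR). The log2 difference was -0.37 (adjusted p = 0.130) with offsets for GC content and length and -0.38 (adjusted p = 0.261) on log2(TPM + 1). RPS6KA4, also called MSK2, which phosphorylates CREB and histone H3 at early gene promoters, fell to 54.6% (log2 change -0.87, adjusted p = 0.0254, edgeR). It was -0.17 (adjusted p = 0.579) with the GC content and length offsets and -0.11 (adjusted p = 0.766) on log2(TPM + 1). RPS6KA3, also called RSK2, fell to 67.2% (adjusted p = 0.0311, edgeR), with a log2 change of -0.57 that was -0.71 with the GC content and length offsets (adjusted p = 0.0199) and 0.18 on log2(TPM + 1) (adjusted p = 0.592).

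Of 14 tested SRF, ternary complex and CREB factors, 1 rose and none fell, with a median of 0.04. ATF1, a partner of CREB1 on the cAMP response element, rose 1.51-fold, from 14.3, 12.7 and 11.4 to 19.7, 18.8 and 19.4 CPM (log2 change 0.59, adjusted p = 0.0479, edgeR). ATF1 did not pass with no filter (0.57), with the GC content and length offsets (0.51) or with DESeq2 (0.57), and on log2(TPM + 1) it was 1.10 (adjusted p = 0.0182). Of 20 known AP-1 target genes 11 were tested, of which 1 fell and none rose, with a median of -0.11. ITGA5, an integrin subunit, fell to 49.6%, from 130, 242 and 193 to 92.4, 98.6 and 89.4 CPM (log2 change -1.01, adjusted p = 0.0232, edgeR). It was -0.70 (adjusted p = 0.0512) with the GC content and length offsets and 0.18 (adjusted p = 0.668) on log2(TPM + 1).

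**Figure D4:**
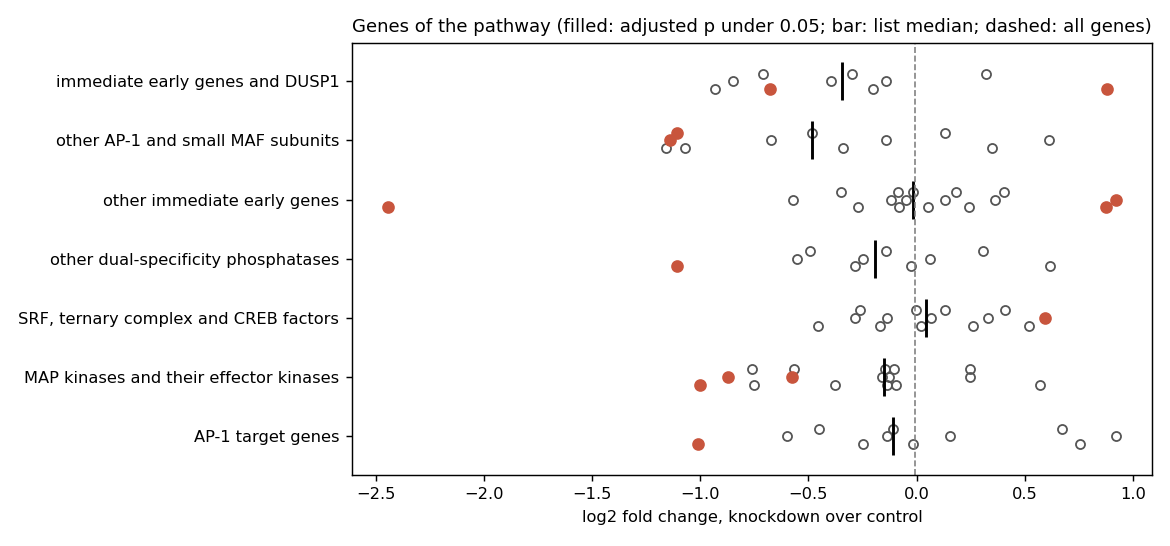
Log2 change of knockdown against control for every tested gene of the 10 genes and of the 6 pathway lists, 1 row per list, filled points past the test and a vertical bar at each list's median and a dashed line at the median of all genes. The medians run from -0.48 for the other AP-1 and small MAF subunits to 0.04 for SRF, ternary complex and CREB factors, beside -0.01 for all genes.

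The GC content of the transcripts moved with the change over all genes. Split into 5 equal bins by GC content, the 16682 tested genes with a value had a median log2 change of 0.21, 0.14, 0.07, -0.11 and -0.46 from the lowest to the highest bin. All 10 genes lay above the median GC content of 49.15%, with JUND at 69.8%, JUNB at 64.9%, IER2 at 62.5%, FOS at 60.9%, IER3 at 58.3%, JUN at 56.7% and the rest between 51.3% and 55.3%. FOS, JUNB, JUND, IER2 and IER3 were thus in the highest bin, which begins at 57.2%, and each of those 5 had an estimate below 0. JUN, just below that bin, rose. With offsets for GC content and length the bins had medians of 0.02 to 0.06. In that fit the difference of JUN was 1.18 (adjusted p = 0.0117) and those of JUNB and JUND were -0.15 and 0.14 (adjusted p = 0.723 and 0.787, edgeR), where 10.5% of all genes were called. Whether GC content has a part in the lower values of JUNB, IER3 and DUSP1 was not tested beyond that fit.

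**Figure D5:**
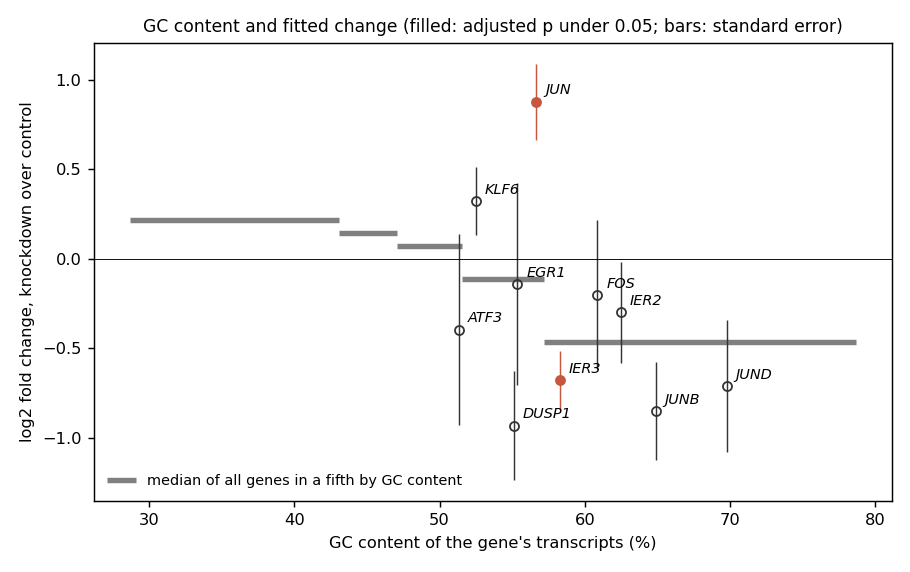
Log2 change of knockdown against control plotted on the GC content of transcripts in percent, with the 10 genes named and grey bars at the median of each of 5 GC bins of all tested genes. The medians go from 0.21 in the lowest bin to -0.46 in the highest, and JUN lies above the medians near it while DUSP1 lies below.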

How the data were processed

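Per the labels' protocols, polyA RNA was sequenced after ScriptSeq library preparation. FastQC 0.11.8, Trimmomatic 0.38, kallisto 0.46.1, sleuth 0.30.0 and the build GRCh38 are named per the submitters' processing notes, with no role or order. The estimated counts per transcript are the authors' values, not normalized, per the file headers. TPM is the authors' length-scaled value for each transcript, as deposited, per the file headers. The strand setting is not given in the sources used here, nor is the annotation release.

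Estimated counts of 234485 transcripts were rounded and summed to 60607 genes, after adding 159 pseudoautosomal records of Y to X. edgeR 4.0.16 (R 4.3.3) was run with TMM, filterByExpr (count of 10, total of 15) and the quasi-likelihood test of 3 knockdown against 3 control libraries, with Benjamini-Hochberg adjustment over all genes at 0.05. Usage was tested with diffSpliceDGE and Simes p-values. The 3 against 3 design allows no exact permutation p below 0.1, so none is given. The steps were tested on simulated data.

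Alternatives were RLE factors, other filters, a replicate block, left-out libraries, DESeq2 1.42.0, limma 3.58.1 on log2(TPM + 1), offsets for length or for GC content and length (mgcv 1.9.3), leaving out structural and mitochondrial genes and, added after seeing the data, summing before rounding. The members and lists were chosen with earlier results of these data known. Named genes are all 10 members, SLU7, up to 4 genes past the test with the smallest p per list, and the 5 genes of most similar profile. ATF3 transcripts were picked after their values were seen. Gene structure and GC content came from GENCODE 29, which covered 97.6% of tested genes, and promoters from RefSeq. Genes that overlap on opposite strands are uncertain.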

Additional observations from a re-analysis of the deposited data

How the results depend on the processing

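Of the 10 genes, 2 passed the test with all 6 libraries, and the number ranged from 0 to 5 when 1 library was left out. It was 5 without control 1 and 0 without any other library. It was 4 with no filter, without control 1 and knockdown 3 together and with DESeq2, 1 with GC content and length offsets and with limma on log2(TPM + 1), and 0 with length offsets. The share of all genes called was 25.6% without control 1, 29.8% without the pair and 16.5% with DESeq2. It was 10.5% with GC content and length offsets, 18.3% with limma and 5.6% with length offsets. With no filter 3185 of 38830 genes were called. RLE factors, the stricter filter, leaving out structural and mitochondrial genes, and summing before rounding kept JUN and IER3. Over all genes 2358 were called, and 0 to 4467 with 1 library left out (0 without knockdown 2, 331 without knockdown 1, 449 without control 2, 629 without control 3, 1027 without knockdown 3, 4467 without control 1), 5234 without the pair and 958 with length offsets. The labels do not say whether the replicate numbers pair the libraries. The deviations of same-numbered libraries from their group means correlated at -0.41, 0.11 and -0.37, which cannot settle it. With the replicate block, 0 genes were called in the whole table, in the 10 genes and in each list, and 87 genes for usage. Calls of usage over all genes numbered 257, 156 to 808 with 1 library left out, 865 without the pair, 442 with the gene-level test and 940 with limma diffSplice. Transcript calls were 0 to 0 with 1 library left out, for the 10 genes and for all, and 94 over all transcripts with no filter.

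In the lists, leaving out 1 library gave 0 to 3 calls for the AP-1 and small MAF subunits, 0 to 3 for other immediate early genes, 0 to 2 for phosphatases, 0 to 1 for SRF and CREB factors, 0 to 5 for MAP kinases and 0 to 1 for AP-1 targets. Without the pair there were 4 of 11 AP-1 subunits, 3 of 10 phosphatases and 5 of 16 kinases, beside 29.8% of all genes. With length offsets there were 1 of 17 immediate early genes, 1 of 16 kinases and 0 in the other 4 lists, beside 5.6% of all genes. With GC content and length offsets there were 5 of 17 immediate early genes, 1 of 16 kinases and 0 AP-1 subunits, phosphatases and AP-1 targets. The share of all genes was 10.5% there. On log2(TPM + 1) there were 4 of 14 SRF and CREB factors and 0 of 10 phosphatases, beside 18.3% of all genes. The calls of AP-1 subunits (2), kinases (3) and AP-1 targets (1) on that scale were all higher. With edgeR the calls in these lists were all lower and of other genes. With no filter and with DESeq2 there were 0 SRF and CREB factors.

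Some single estimates changed sign. With 1 library left out, FOS ranged from -0.49 to 0.11, EGR1 from -0.59 to 0.35, JUN-202 from -7.31 to 1.03, EGR1-201 from -0.75 to 0.22, KLF6-206 from -0.57 to 0.23, KLF6-207 from -0.33 to 7.47 and IER3-202 from -0.99 to 0.050, and IER2-203 from -0.18 to 0.84 when the fit without the pair is included. With GC content and length offsets FOS was 0.26, EGR1 0.12, IER2 0.30 and JUND 0.14. On log2(TPM + 1) FOS was 0.091, EGR1 0.12, IER2 0.098, ATF3 0.16, RPS6KA3 0.18 and ITGA5 0.18. The median over all genes was 0.35 on that scale, and each of those estimates lay below it. With the replicate block EGR1 was 0.029 and JUN-202 -3.06. The cause of these changes was not tested. FOS, ATF3 and EGR1, with 5 to 31 estimated counts per library, and JUND, with 14 to 56, rest on few reads.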
